A study of Homo sapiens with 2 samples.

Results

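The 10 glycolysis genes described here are SLC2A1, HK2, PFKP, PFKFB3, ALDOA, PGK1, ENO1, PKM, LDHA and PDK1, chosen by name from the 20037 protein-coding genes of the RefSeq annotation. A peak belonged to a gene when it lay inside the annotated gene or within 20 kb of it, and 77 of 61700 RUNX2 peaks and 64 of 42683 MTA1 peaks did so. The peaks came from CUT&Tag, in which an antibody tethers a transposase to chromatin so that DNA near the bound protein is cut and sequenced. The cells were untreated MDA-MB-231, a triple-negative breast cancer line, grown in DMEM with serum. There was 1 library with an antibody to RUNX2 and 1 with an antibody to MTA1, with no replicate and no control library used here, and for both antibodies the labels and the methods name different suppliers. No value below therefore has a replicate error, and no p-value is given. No peak of either library lay in CDKN2A or within 20 kb of it, a locus known to be deleted in this line.

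Glycolysis turns glucose into pyruvate in the cytosol, and many tumour cells send much of that pyruvate on to lactate even where oxygen is present. Many of the steps have several isozymes with different tissue distributions, and the forms studied here are the ones commonly raised in tumours and in hypoxia. RUNX2 is a Runt-domain transcription factor of bone that binds short sequences around the core TGTGGT together with its partner CBFB. MTA1 is a subunit of the NuRD complex, which joins nucleosome remodelling to histone deacetylation. The study concerns RUNX2 bringing a repressive complex that contains MTA1 to its target genes, and the lists address where both proteins lie. Binding lists say nothing of expression, which was not measured in these libraries.

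The regions of all 10 genes held peaks of both libraries, and in all 10 at least 1 RUNX2 peak overlapped an MTA1 peak. This is common in the genome. A RUNX2 peak lay in the same window at 84.4% of protein-coding genes and an MTA1 peak at 79.7%. Peaks of both libraries were found at 76.9%, and overlapping ones at 71.0%. Scores are the authors' own and their scale is not stated, so each peak is given by its rank, the percentage of peaks in its own list with a lower score. A RUNX2 peak in the top 10% of the list lay in the region of 9 of the 10 genes, all but ALDOA, against 27.3% of protein-coding genes. An MTA1 peak in the top 10% lay in 6 of 10, against 28.1%. Counted by peak, 18 of the 77 RUNX2 peaks (23.4%) and 8 of the 64 MTA1 peaks (12.5%) were in the top 10%. A region held a median of 7 RUNX2 and 6.5 MTA1 peaks, against 3 and 2 over all protein-coding genes. The part of peak number in the gene counts was not tested. The peaks were also dense. The regions together held 7.64 RUNX2 and 6.35 MTA1 peaks per 100 kb, while the regions of all protein-coding genes held 2.88 and 2.08. Gene by gene, the RUNX2 density ran from 4.31 per 100 kb at PDK1 to 17.7 at SLC2A1, with a median of 8.87 (median of all protein-coding genes 3.57). For MTA1 it ran from 3.35 at PDK1 to 13.0 at ALDOA, with a median of 6.79 (2.48 over all protein-coding genes).

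**Figure D1:**
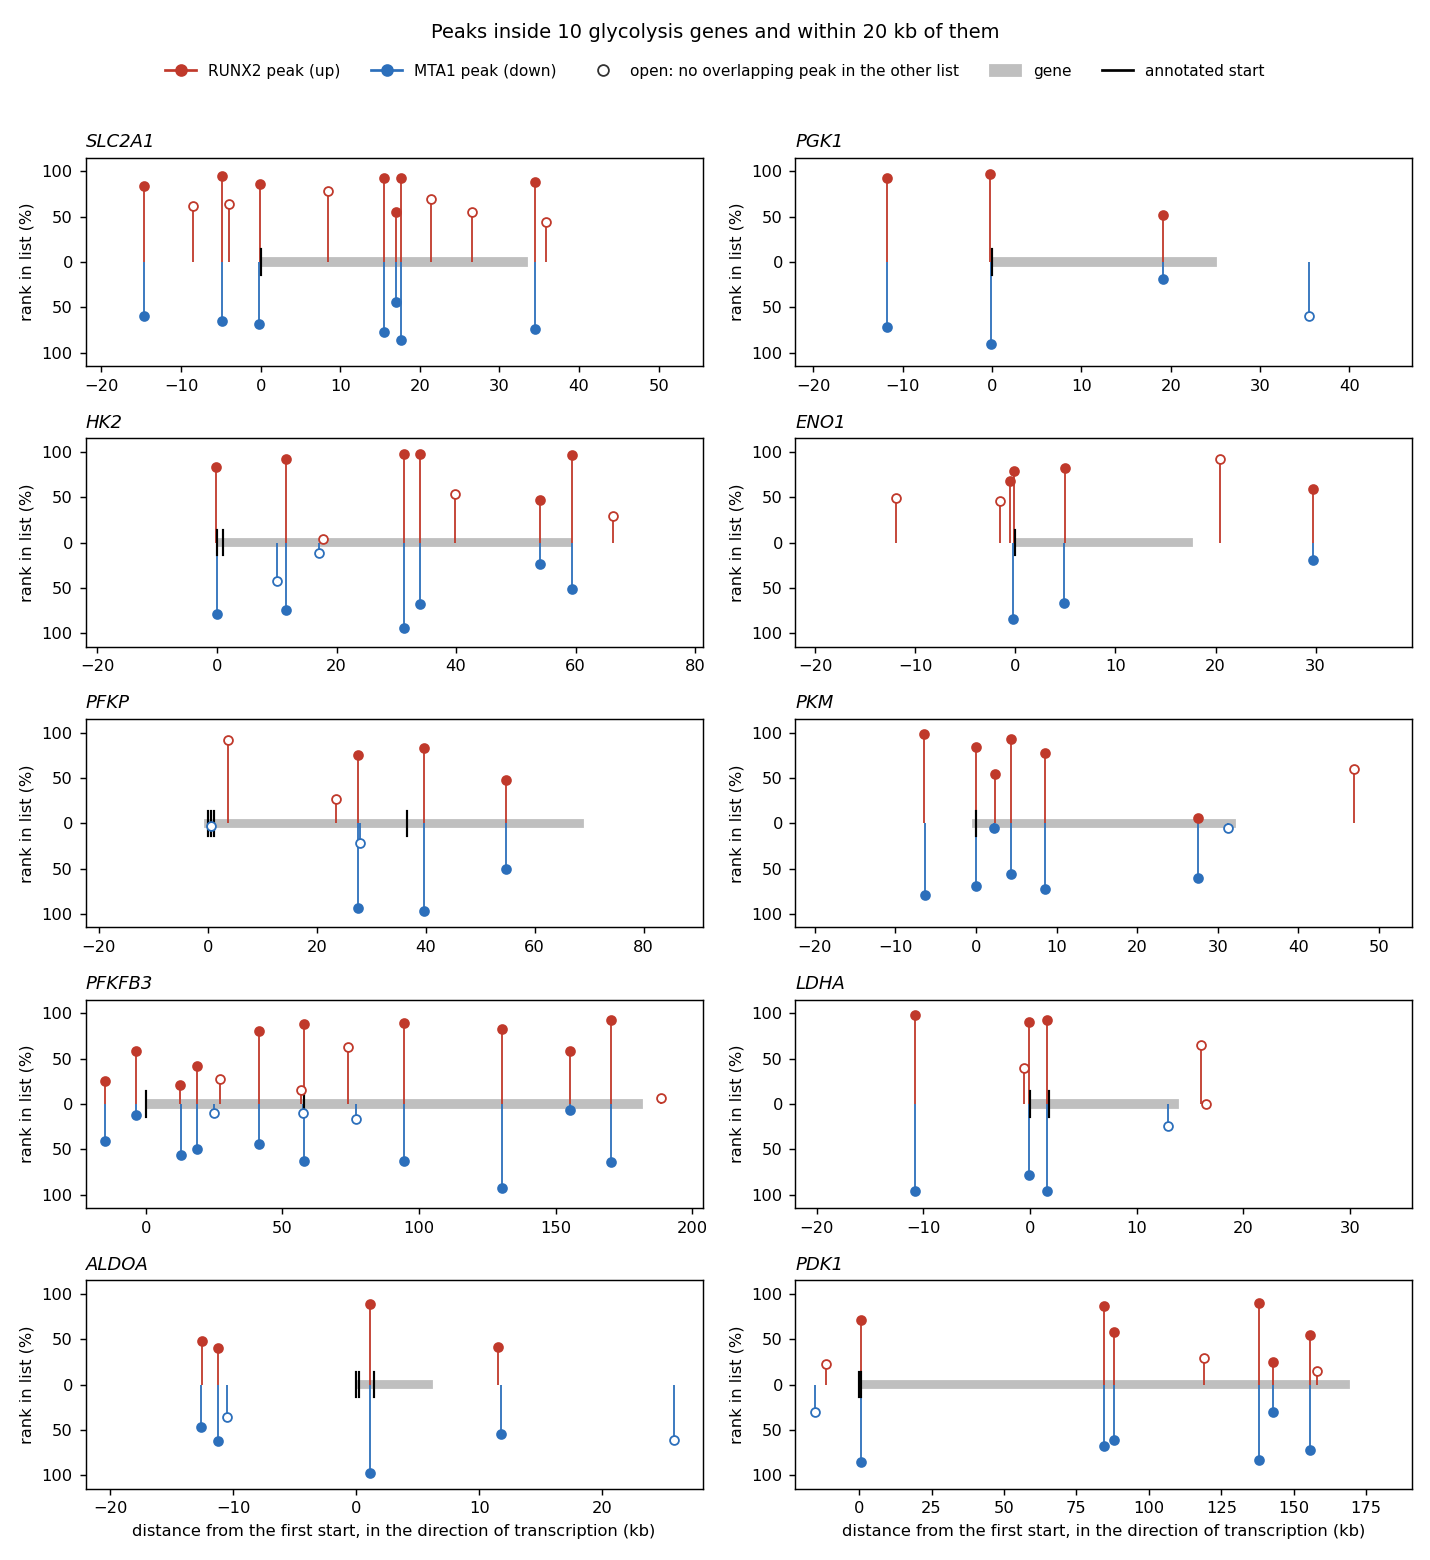
Position of every RUNX2 peak (red, upward) and MTA1 peak (blue, downward) in the regions of the 10 genes, with the distance in kb from the first annotated start on the horizontal axis and the rank of the peak in its own list (%) on the vertical axis. Grey bars are genes, black ticks annotated starts, and open circles the 25 RUNX2 and 13 MTA1 peaks with no overlapping peak in the other list; SLC2A1, HK2 and PFKFB3 carry many peaks along the gene, and PGK1 and ALDOA few.

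SLC2A1 encodes the transporter GLUT1, which brings glucose into the cell. Its region held 13 RUNX2 peaks, more than 97.7% of protein-coding genes, and its density was higher than that of 99.6% of them. It held 7 MTA1 peaks, and every MTA1 peak overlapped a RUNX2 peak. The strongest RUNX2 peak was not at the start of the gene but 4.84 kb upstream, at chr1:42963571-42963845 (rank 94.9%). It overlapped an MTA1 peak of rank 65.5%. A pair of peaks inside the gene, at chr1:42941095-42941426 and chr1:42943249-42943504, had RUNX2 ranks of 92.3% and 93.0%, and the MTA1 peaks over them had ranks of 85.9% and 77.1%. Another shared peak lay beyond the 3′ end of the gene, at chr1:42924222-42924567, with ranks of 88.7% for RUNX2 and 74.2% for MTA1. Positions are those of the files. They match gene starts of GRCh38, although the submitters' processing notes list the build hg19.

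HK2 encodes hexokinase 2, which phosphorylates glucose and so holds it in the cell. Its region held 9 RUNX2 and 8 MTA1 peaks, of which 6 RUNX2 peaks were shared. Of the RUNX2 peaks in its region 4 were in the top 10% of the list, and each of them lay away from the start. They were at 10.4 kb, 30.2 kb and 33.0 kb from the nearest start inside the gene and just past its 3′ end, 58.4 kb away. The peak at chr2:74865023-74865725 had the highest ranks of the region in both libraries, 98.3% for RUNX2 and 94.0% for MTA1. At chr2:74867972-74868351 and chr2:74893408-74893717 the RUNX2 ranks were 98.2% and 96.8%, while the MTA1 peaks over them ranked lower, at 67.5% and 51.5%.

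Phosphofructokinase commits the sugar to glycolysis. PFKP, which encodes its platelet form, had 5 peaks of each library, 3 of them shared, and its RUNX2 density was above that of 60.7% of protein-coding genes. It was the exception among the 10 genes at its promoter. PFKP has 4 annotated starts, and no RUNX2 peak lay within 1 kb of any of them. The cluster of starts at the 5′ end had a single MTA1 peak, chr10:3068465-3068580, of the narrowest width in the list (116 bp) and of rank 2.54%. A RUNX2 peak of rank 91.8% lay 2.44 kb past the nearest of these starts, at chr10:3071545-3071721, with no MTA1 peak over it. The strong shared sites were deeper inside. At chr10:3107364-3107877, 3.01 kb past the last annotated start, MTA1 had a rank of 96.5% and RUNX2 83.5%. At chr10:3095321-3095622 the ranks were 93.6% and 75.7%. PFKFB3 makes the sugar bisphosphate that activates phosphofructokinase. With the longest region of the 10 genes (222 kb) it had the most peaks, 14 of RUNX2 and 13 of MTA1, and 10 of each overlapped. Its RUNX2 density of 6.31 per 100 kb was above that of 74.0% of genes. Its peaks were spread along the gene, the strongest RUNX2 peak (92.8%) 112 kb past the nearest start, at chr10:6314856-6315156, and the strongest MTA1 peak (93.1%) at chr10:6275247-6275598. The first start of PFKFB3 had no peak within 3 kb, and the start peaks all belonged to the internal start.

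ALDOA, the aldolase that splits the sugar into triose phosphates, had the fewest peaks nearest to itself. Its gene is 6.14 kb long and its region lies among other genes. Of its 4 RUNX2 and 6 MTA1 peaks, 1 of each lay in the gene, and the others were nearest to TLCD3B, LOC112694756, PPP4C or TBX6. The peak in ALDOA is equally near to LOC112694756. It was the strongest MTA1 peak at any of the 10 genes, chr16:30065094-30065750, with a rank of 97.9%. The RUNX2 peak over it, chr16:30065058-30065729, had a rank of 89.1%.

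The payoff steps followed. PGK1, phosphoglycerate kinase, makes ATP and lies on the X chromosome. Its region had 3 RUNX2 peaks, all shared, and 4 MTA1 peaks. The promoter peak had the highest RUNX2 rank at a start among the 10 genes, 97.0%, at chrX:78103834-78104266, and the MTA1 peak over it ranked at 90.6%. A second shared peak lay 11.8 kb upstream, at chrX:78092277-78092617 (92.4% for RUNX2 and 71.4% for MTA1). ENO1, enolase, had 7 RUNX2 peaks but 3 MTA1 peaks. Past the end of the gene, at chr1:8857990-8858554, lay a RUNX2 peak of 565 bp and rank 92.1% with no MTA1 peak over it, the highest-ranked unshared RUNX2 peak in the 10 regions. At the ENO1 start, 2 neighbouring RUNX2 peaks (79.2% and 68.0%) both lay under 1 MTA1 peak of 650 bp with a rank of 84.2%.

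PKM encodes the pyruvate kinase of most tissues and tumours. It had 7 peaks of each library, 6 of them shared. The highest RUNX2 rank of all 77 peaks was upstream of it, at chr15:72237478-72237720, with 98.7% for RUNX2 and 79.5% for MTA1. This site lies 6.41 kb before the PKM start and is nearer to PARP6, and which gene it serves cannot be told apart. Counting only peaks nearest to PKM, the strongest RUNX2 peak was at chr15:72226733-72227018, in the gene, with a rank of 92.6%, and the strongest MTA1 rank was 72.2%. LDHA encodes the lactate dehydrogenase subunit that turns pyruvate into lactate. It had 6 RUNX2 and 4 MTA1 peaks, 3 shared. The RUNX2 peaks downstream of it, chr11:18410522-18410630 and chr11:18410997-18411095, were nearest to the neighbouring gene LDHC. The shared sites lay 10.8 kb upstream at chr11:18383365-18384251 (98.0% for RUNX2 and 96.5% for MTA1), at the first start (90.2% and 77.9%) and at the internal start, chr11:18395967-18396271 (92.9% and 96.5%). PDK1 encodes a kinase that switches off pyruvate dehydrogenase and keeps pyruvate out of the mitochondria. It had 9 RUNX2 and 7 MTA1 peaks, 6 shared, over a region of 209 kb, the lowest RUNX2 and MTA1 densities of the 10 genes. Its strongest RUNX2 peak (90.3%) lay 137 kb past the start, at chr2:172692986-172693402, and its strongest MTA1 peak (85.0%) at the start.

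At the gene starts, taken as 3 kb on either side of each annotated start and counting a peak when any base of it fell in that window, all 10 genes had peaks of both libraries and an overlapping pair. A RUNX2 peak lay at 58.3% and an MTA1 peak at 59.0% of the 15842 protein-coding genes with a start in the promoter table. Such a pair was present at 48.8% of them, and peaks of both libraries at 51.7%. For PFKP the pair reached into the window with its near edges alone, as the centres lay 3.08 kb (RUNX2) and 3.01 kb (MTA1) past the last start. Its counts below as an overlapping pair, as a top 10% MTA1 start peak and as a strongest MTA1 peak at a start rest on that edge. Within 1 kb of a start the count of genes with a pair was 9 of 10, all but PFKP. The share of all protein-coding genes was not counted at this distance, so that count has no background. The rank of the strongest start peak was above the median of protein-coding genes with such a peak in 9 genes for RUNX2 (median 71.8%) and in 7 for MTA1 (75.7%). From high to low, the RUNX2 ranks were PGK1 97.0%, LDHA 92.9%, PFKP 91.8%, ALDOA 89.1%, PFKFB3 87.7%, SLC2A1 85.6%, PKM 84.3%, HK2 83.6%, ENO1 79.2% and PDK1 71.2%. The MTA1 order differed, with ALDOA 97.9%, LDHA 96.5%, PFKP 96.5%, PGK1 90.6%, PDK1 85.0%, ENO1 84.2%, HK2 78.7%, PKM 69.4%, SLC2A1 68.9% and PFKFB3 62.9%. With 1 library each, neighbours in these orders cannot be told apart. A start peak in the top 10% of its list was found at 3 genes for RUNX2 (PGK1, LDHA and PFKP), against 10.5% of protein-coding genes, and at 4 for MTA1 (these 3 and ALDOA), against 15.8%. The start peaks of 5 genes (SLC2A1, HK2, PFKFB3, ENO1 and PDK1) were also within 1 kb of the start of a divergent or antisense transcript, and the gene that such a peak serves cannot be told apart.

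**Figure D2:**
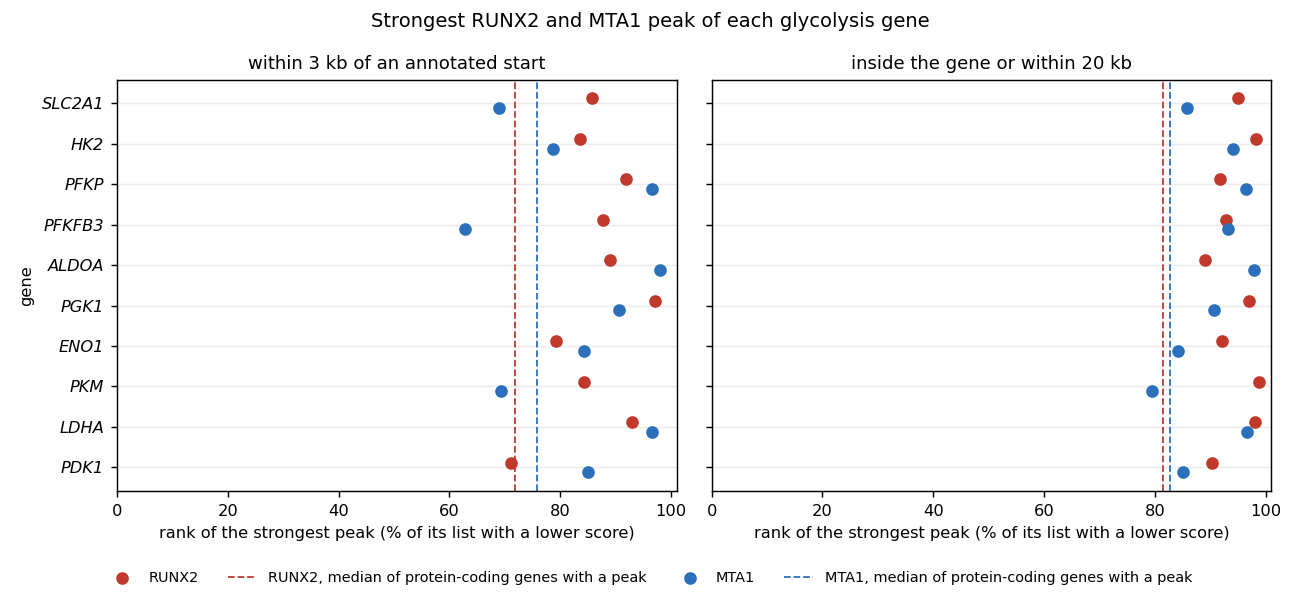
Rank of the strongest RUNX2 (red) and MTA1 (blue) peak of each gene in its own list (horizontal axis, % of peaks with a lower score), at the annotated starts (left) and in the whole region (right). Dashed lines are the medians of protein-coding genes with a peak, 71.8% and 75.7% at starts and 81.5% and 82.7% in regions; all 10 RUNX2 points on the right lie above the red line.

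The place of the strongest peak is given for each library, with no test of the difference between them. The highest-scoring RUNX2 peak of the region was at a start in 3 of 10 genes (PFKP, ALDOA and PGK1), near the 35.1% of protein-coding genes with a RUNX2 peak. The highest-scoring MTA1 peak was at a start in 6 of 10, with ENO1, LDHA and PDK1 in addition, against 43.9%. At LDHA the upstream MTA1 peak ties with the start peak, and at PFKP the MTA1 peak reaches the start window with its edge alone.

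The promoter sequences of 6 genes are shown for these reasons. PGK1 had the highest RUNX2 rank at a start and ALDOA the highest MTA1 rank, and the window at the first start of LDHA, whose peaks rank below those of its internal start, lay wholly in a RUNX2 peak. HK2 and SLC2A1 had many peaks along the gene, and at PFKP no RUNX2 peak was called within 1 kb of a start. Each line gives the 250 bases before an annotated start, 5′ to 3′ on the strand of the gene, from the RefSeq promoter table of GRCh38.p14. Capitals mark the RUNX core TGTGGT or TGCGGT and the core of the hypoxia response element, ACGTG or GCGTG, on either strand. The windows are chrX:78103998-78104247 on the plus strand for PGK1, chr11:18394313-18394562 on the plus strand for the first start of LDHA, chr2:74833877-74834126 on the plus strand for the first start of HK2, chr16:30065510-30065759 on the plus strand for the third start of ALDOA, chr1:42958869-42959118 on the minus strand for SLC2A1 and chr10:3068377-3068626 on the plus strand for the second start of PFKP.
PGK1: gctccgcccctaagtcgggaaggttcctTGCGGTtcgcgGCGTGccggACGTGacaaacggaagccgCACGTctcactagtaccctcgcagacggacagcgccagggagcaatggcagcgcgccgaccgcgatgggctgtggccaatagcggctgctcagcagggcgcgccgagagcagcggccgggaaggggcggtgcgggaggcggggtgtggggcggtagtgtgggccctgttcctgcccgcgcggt
LDHA: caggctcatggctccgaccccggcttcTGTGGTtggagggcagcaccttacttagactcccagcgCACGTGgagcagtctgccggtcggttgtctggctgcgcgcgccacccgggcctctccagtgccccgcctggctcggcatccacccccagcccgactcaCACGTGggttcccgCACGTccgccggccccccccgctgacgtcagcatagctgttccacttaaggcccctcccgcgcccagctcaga
HK2: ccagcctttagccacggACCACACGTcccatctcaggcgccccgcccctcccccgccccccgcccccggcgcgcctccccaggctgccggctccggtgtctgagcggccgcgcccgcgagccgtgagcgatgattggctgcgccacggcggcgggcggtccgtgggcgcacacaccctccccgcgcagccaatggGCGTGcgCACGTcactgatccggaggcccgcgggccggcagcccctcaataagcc
ALDOA: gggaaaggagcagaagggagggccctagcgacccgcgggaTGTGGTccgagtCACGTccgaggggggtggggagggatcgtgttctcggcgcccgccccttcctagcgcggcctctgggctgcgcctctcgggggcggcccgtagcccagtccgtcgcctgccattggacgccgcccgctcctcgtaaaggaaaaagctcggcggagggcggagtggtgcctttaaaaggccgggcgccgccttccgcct
SLC2A1: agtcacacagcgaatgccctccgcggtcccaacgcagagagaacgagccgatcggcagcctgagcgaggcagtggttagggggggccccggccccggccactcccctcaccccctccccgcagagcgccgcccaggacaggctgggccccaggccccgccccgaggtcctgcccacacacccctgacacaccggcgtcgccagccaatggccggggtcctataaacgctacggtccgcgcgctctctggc
PFKP: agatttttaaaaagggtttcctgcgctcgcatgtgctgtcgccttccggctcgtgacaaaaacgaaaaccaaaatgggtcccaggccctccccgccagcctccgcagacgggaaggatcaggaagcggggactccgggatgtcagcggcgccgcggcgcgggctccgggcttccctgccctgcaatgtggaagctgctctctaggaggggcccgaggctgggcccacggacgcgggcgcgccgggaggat

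In the table's windows of 300 bases, which run 50 bases further, the PGK1 promoter had 269 bases inside the RUNX2 peak and 271 inside the MTA1 peak. It holds 1 RUNX core and several hypoxia cores close together near its upstream end. The LDHA promoter lay wholly in the RUNX2 peak (300 bases) and had 289 bases in the MTA1 peak, with 1 RUNX core and hypoxia cores in 3 places before the start, 2 of them within an E-box, CACGTG, which contains the hypoxia core on both strands. HK2 had 288 and 218 bases in the peaks, and its RUNX core shares bases with a hypoxia core. ALDOA had 220 and 241 bases in the peaks, with 1 RUNX core and 1 hypoxia core. The SLC2A1 window held neither core before the start, with 262 and 251 bases in the peaks. At PFKP the window had 0 bases in a RUNX2 peak and 116 in the weak MTA1 peak, and held neither core. Over all 19 annotated starts of the 10 genes, which in part share sequence, 7 windows held a RUNX core and 16 a hypoxia core, against 19.0% and 54.7% of the 22175 windows of protein-coding genes. Among the 10 windows that touched a RUNX2 peak, 5 held a RUNX core and 10 a hypoxia core. Among the 9 that touched none, 2 held a RUNX core, at the first and second starts of ALDOA, and 6 a hypoxia core. Of the windows of all protein-coding genes that touched a RUNX2 peak, 21.4% held a RUNX core and 67.9% a hypoxia core. Of those that touched none, 17.5% and 46.7% did. The windows of the 10 genes were rich in G and C, with a median of 70.7% against 62.3%, and the hypoxia core is a CpG-containing word. The part of base composition in these counts was not tested. An AP-1 word, TGANTCA, was in 0 of the 19 windows (6.14% of all), and a TATA box, TATAAA, in 2 (9.47%), 1 of them 31 bases before the SLC2A1 start. The GC box GGGCGG was in 13 of 19 (56.3% of all), and an E-box in 4 (8.34%). All words were searched on both strands. A match is a string of letters in a window and does not show binding.

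The share of peaks that overlapped was higher in these regions than near protein-coding genes at large. Of the 77 RUNX2 peaks, 52 overlapped an MTA1 peak, or 67.5% (exact 95% interval 55.9% to 77.8%, counting error over peaks only), against 49.5% of the 39746 RUNX2 peaks in the regions of protein-coding genes with an annotated start. Of the 64 MTA1 peaks 51 overlapped, or 79.7% (67.8% to 88.7%), against 67.4%. The gap for RUNX2 was wider away from the starts. At starts 13 of 17 RUNX2 peaks were shared, 76.5% (50.1% to 93.2%), near the 72.8% of all start peaks. Elsewhere 39 of 60 were, 65.0% (51.6% to 76.9%), against 40.1%. Inside the genes the count was 26 of 36, upstream 9 of 13 and downstream 4 of 11, and these intervals overlap. The members' RUNX2 peaks were also stronger, with a median rank of 64.7% against 51.3% near all protein-coding genes, and fewer were of the narrowest width (16.9% at 99 bp, against 31.7% of the list). For MTA1 the median rank was 60.9% against 52.7%, and 17.2% were of the narrowest width (26.0% of the list). The part of peak strength and width in the overlap was not tested.

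**Figure D3:**
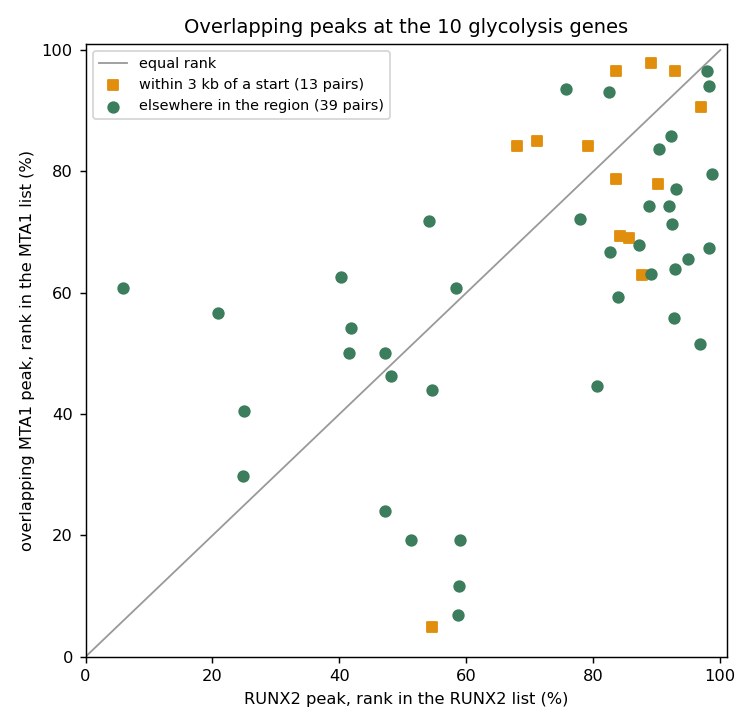
Rank of each RUNX2 peak in its list (horizontal axis, %) against the rank of the MTA1 peak that overlaps it (vertical axis, %), for the 52 overlapping pairs at the 10 genes. Orange squares are the 13 pairs within 3 kb of a start, green circles the 39 pairs elsewhere, and the line marks equal ranks; 27 of the green circles lie below it.

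Ranks within the pairs are given by place, with no test of the difference between places, and they compare positions in lists of unequal length. Away from the starts, RUNX2 ranked above MTA1 in 27 of 39 pairs (69.2%), with a median difference of 14.5 percentage points. Near all protein-coding genes this was so in 63.7% of 11338 pairs, with a median difference of 7.43 points. At the starts RUNX2 ranked above MTA1 in 7 of 13 pairs, with a median difference of 4.86 points, while over all 8335 start pairs it did so in 40.2%, with a median of −3.56 points. Of these 13 pairs 2, at ENO1, share 1 MTA1 peak. The start pairs in which MTA1 ranked higher were those of ALDOA, ENO1, PDK1, PFKP and the internal start of LDHA. The pairs of SLC2A1, HK2, PFKFB3, PGK1 and PKM had the higher rank for RUNX2, as did that at the first start of LDHA. Across the 52 pairs the ranks had a Spearman rho of 0.579 (0.481 over 19673 pairs near protein-coding genes). These are correlations over sites of the same 2 libraries, not over samples.

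For the wider pathway, 37 further genes of glycolysis and pyruvate handling and 8 genes that control the hypoxia-inducible factors were set beside the members. In their regions 32 of the 37 and 8 of the 8 had overlapping peaks, against 71.0% of protein-coding genes. A top 10% RUNX2 peak was found in 14 of the 37 and 3 of the 8, against 27.3% of protein-coding genes. A top 10% MTA1 peak was found in 12 and 3, against 28.1%. LDHC is among the 37, and its region reaches over the internal start of LDHA. Its strongest peaks were those of that start, 92.9% for RUNX2 and 96.5% for MTA1, and they count for both genes. The median RUNX2 density was 6.11 peaks per 100 kb in the 37 genes and 5.39 in the 8, below the 8.87 of the 10 members. Start peaks could be counted in 31 of the 37 and 7 of the 8. An overlapping pair lay at the start in 17 of 31, near the background of 48.8%, and in 6 of 7. A top 10% RUNX2 peak was at the start of 1 of 31 and 3 of 7, against 10.5% of protein-coding genes. A top 10% MTA1 peak was at the start of 3 and 3, against 15.8%.

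Single genes of these lists went both ways. ARNT, the constant partner of the hypoxia-inducible factors, had the highest RUNX2 rank of both lists, at its start, chr1:150876511-150876993, with 99.5% for RUNX2 and 98.7% for the MTA1 peak over it. It was followed for RUNX2 by FBP2, a muscle enzyme of gluconeogenesis, with 99.0% at chr9:94554302-94555055, and by HK1, with 98.1% at chr10:69382729-69383162, 48.3 kb past the nearest start. For MTA1 the highest was 98.8% in the region of TPI1, triosephosphate isomerase, but that peak was nearest to USP5. EGLN2, an oxygen-sensing prolyl hydroxylase, followed ARNT with 98.6% at its start. PGK2, the testis form of phosphoglycerate kinase, had no peak of either library in its region, and neither did PDK3. Further genes were picked after their values were seen, as isozymes of the members or for the steps that the members leave out. PFKFB4 had start ranks of 95.5% for RUNX2 and 97.0% for MTA1, both higher than the 87.7% and 62.9% of PFKFB3. LDHB had 72.1% and 76.2%, both lower than LDHA. PDK2, with 83.8% and 78.5%, was higher than PDK1 for RUNX2 and lower for MTA1. Of the isozymes with an annotated start, PFKFB4 alone ranked above its member in both lists. HK1 (70.6% and 77.1%), PFKM (1.51% and 51.9%) and ENO3 (51.1% and 63.9%) were lower in both. HKDC1 was lower than HK2 for RUNX2 (61.3%) and higher for MTA1 (84.4%). HK3, PFKL, ENO2 and PKLR had no start peak in either list. Of the steps that the members leave out, GAPDH and PGAM1 had strong start pairs (89.2% and 92.6%, and 86.6% and 91.1%). GPI and TPI1, also of left-out steps, went the other way at their starts. GPI had start ranks of 0.655% for RUNX2 and 10.5% for MTA1, and TPI1 had no start peak in either list. In their regions the strongest RUNX2 and MTA1 peaks had ranks of 95.4% and 97.2% for GPI, and 93.7% and 98.8% for TPI1. Among these 45 genes, by the summed distance of their region ranks in the 2 libraries, the gene most like PKM was FBP2 (1.46 points away), and the one most like ALDOA was PKLR (4.44 points). The PKM ranks used, 98.7% and 79.5%, are those of the site nearer to PARP6. With peaks nearest to PKM alone they were 92.6% and 72.2%, further from the 99.0% and 78.3% of FBP2. Peak numbers and start peaks did not enter this distance. FBP2 had 1 MTA1 peak in its region and PKM 7, and PKLR had no start peak while the strongest peaks of ALDOA were at a start. A likeness over 2 libraries is a description only.

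**Figure D4:**
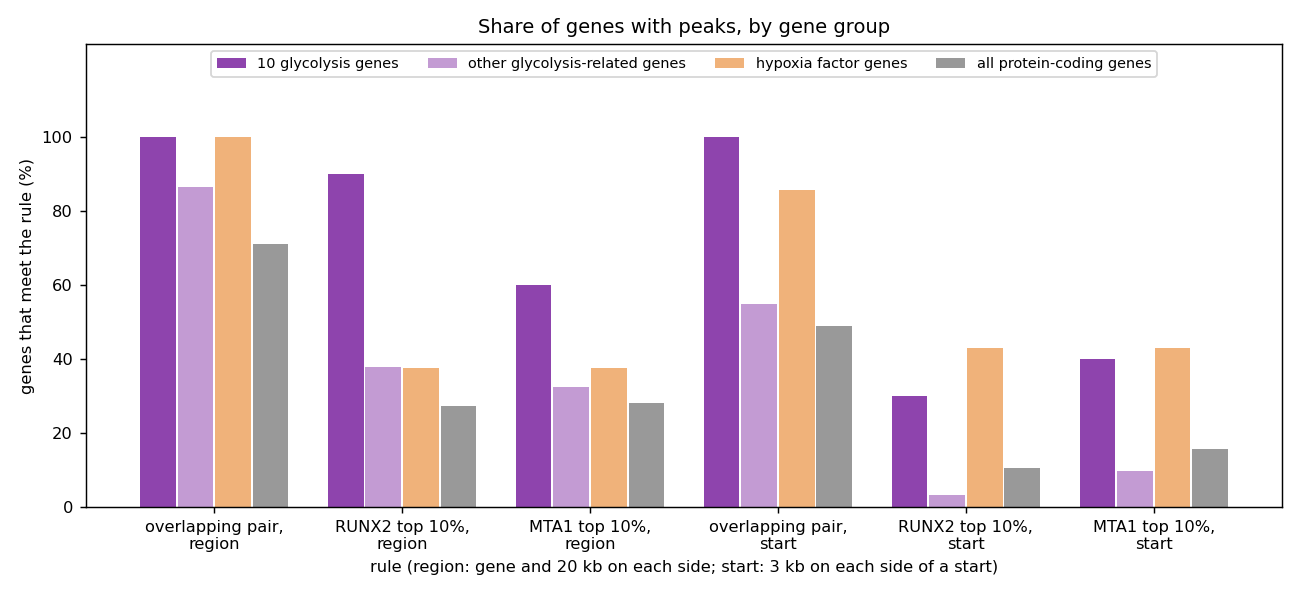
Percentage of genes (vertical axis) that meet each of 6 rules, for the 10 glycolysis genes, the other glycolysis-related genes (37 in the region rules, 31 in the start rules), the hypoxia factor genes (8 and 7) and all protein-coding genes. The widest gap between the 10 genes and all protein-coding genes is in the top 10% RUNX2 peaks of the region, 9 of 10 against 27.3%.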

How the data were processed

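The authors sequenced 1 CUT&Tag library per antibody and deposited 1 peak list for each, with position, name and a score per peak, whose scale is not stated. The submitters' notes name CASAVA 1.4, Bowtie 0.12.8, MACS, MACS2 and the build hg19. Against gene starts of GRCh38.p14, 15.9% of the deposited RUNX2 positions were no further than 1 kb (2.19% once moved by 100 kb), and for MTA1 the figures were 22.7% and 2.36%, so GRCh38 tables were used. The peak threshold and the read depth are not given in the sources used here, and a missing peak may be a weak signal. Peak widths and positions are in bases, 1-based.

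Chromosomes 1 to 22, X and Y were used. Peaks overlapped when they shared at least 1 bp. Starts came from the RefSeq promoter table, which was matched for 15842 of 20037 protein-coding genes and for all 10 members. The planned comparisons had no test, as each antibody had 1 library. The genes described, the lists set beside them and the rules were chosen with earlier results of these data known. Named genes were the members, the related genes with the 3 highest ranks per library or no peak, and genes nearest to a named peak. The isozymes and the genes of left-out steps were picked later. Counting was tested on simulated data. Exact intervals came from scipy 1.17.1 and plots from matplotlib 3.10.9, run in Python 3.11.15 beside pandas 2.3.3 and numpy 2.4.6.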

Additional observations from a re-analysis of the deposited data

How the results depend on the processing

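Of 124 values under 12 alternative settings, 103 stayed within 1.5-fold of the reported count, or within the 95% interval of the reported share, or gave the same strongest peak, and 21 did not. When each list was limited to its 10000 top-scoring peaks, 26 RUNX2 and 16 MTA1 peaks remained in the regions, of which 38.5% and 62.5% were shared, and 4 of the 10 genes had start peaks of both libraries, 3 of them overlapping. Among the related genes and hypoxia genes, this setting left 27 with a RUNX2 peak in the region, 23 with both and 21 with an overlap, and at starts 8 with RUNX2, 11 with MTA1, 7 with both and 7 with an overlap. Fewer peaks give fewer genes by construction. Shares over all protein-coding genes and their peaks were not counted under the alternative settings. Whether the higher overlap in the regions of the 10 genes holds under them was therefore not tested. Peaks at or above the median score left 42 MTA1 peaks. The gene span without flanks left 49 RUNX2 peaks, and 25 related and hypoxia genes with both libraries and 23 with an overlap. Asking that a pair share 50% of each peak lowered the shared part to 53.2% for RUNX2 and 64.1% for MTA1, by construction. Counting only peaks nearest to the gene moved the strongest peak of PKM, to 92.6% for RUNX2 and 72.2% for MTA1, and of no other member. Motifs were searched in the promoter windows only, not in the peaks themselves. No paired analysis was possible because each antibody had 1 library. The unknown depth limits low-ranked peaks most: that a site of one list is empty in the other was not detectable.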
